A study of Arabidopsis thaliana with 29 samples.

Results

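Photosystem I and the cytochrome b6f complex are built from plastid-encoded and nucleus-encoded subunits, and the 10 plastid genes *psaA*, *psaB*, *psaC*, *psaI*, *psaJ*, *petA*, *petB*, *petD*, *petG* and *petL* were followed here over all 12 groups of an *A. thaliana* microarray series. They were taken by symbol from the array annotation wherever a probe set named the gene alone, which held for all 10. They are 10 of the 69 plastid genes measured in this way and of 22589 genes tested on the array, a number that counts probe sets without a single gene name as genes of their own. Each member had 1 probe set. Levels are log2 signals of a probe set, and because probe sets bind with different strength, no gene's signal was set against another's as an amount of RNA.

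The cytochrome b6f complex accepts electrons from plastoquinol, releases protons into the thylakoid lumen and passes the electrons to plastocyanin, and photosystem I then uses light to move them from plastocyanin to ferredoxin. Plastid genes are transcribed in operons into long precursor RNAs, which are cut, trimmed and, for some, spliced or edited, and the ends that accumulate are set largely by nucleus-encoded RNA-binding proteins. Mature plastid mRNAs carry no stable poly(A) tail. Biotinylated cRNA was prepared by the manufacturer's standard protocol, and the sources used here do not state which primer started the cDNA.

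The Col-0 seedlings were wild type (WT) or carried a parvalbumin transgene, whose protein binds Ca2+. Parvalbumin with a nuclear export signal (*PV-NES*, lines 1, 7 and 11) buffers Ca2+ in the cytosol, and parvalbumin with a nuclear localisation signal (*PV-NLS*, lines 4, 5 and 8) buffers it in the nucleus. The promoter of the transgenes is not given in the sources used here, and no probe set was annotated for them. After 3 days of stratification and 3 days of growth at 22 °C under long days (16 h light), the seedlings spent 5 days on plates without hormone (control), with 10 µM abscisic acid (ABA), with 50 µM methyl jasmonate (MeJA) or with 1 µM 1-aminocyclopropane-1-carboxylic acid (ACC, the precursor of ethylene). Each group of transgenic seedlings held 3 arrays, 1 for each line, and replicates 1, 2 and 3 follow the order of the lines above. WT had 2 control arrays and 1 array for each hormone, 29 arrays in all. Within a genotype, the 3 hormones were compared with the same controls. WT responses rest on a single treated array, whose spread is assumed to be that of the other groups, and the p-values measure the spread between these arrays.

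Some arrays stood apart. The 25S rRNA probe set gave a log2 signal of 10.65 to 11.03 on 7 of the 8 control arrays and 8.94 on *PV-NLS* control replicate 1, a value within the range of the hormone-treated arrays (8.62 to 9.41 after ABA, 8.98 to 9.72 after MeJA, 9.56 to 10.36 after ACC). The BioB hybridisation control also differed with treatment, at 6.98 to 7.65 on control arrays and 6.06 to 6.98 on hormone-treated arrays. Over the 69 plastid genes, *PV-NLS* control replicate 1 and *PV-NLS* ABA replicate 3 deviated most from their group means (root mean square of 0.416 and 0.413 log2, against 0.141 to 0.344 on the other 24 arrays of groups with more than 1 array). The part of these differences in the results was not tested, and members whose adjusted p crossed 0.05 without either array, in responses of *PV-NLS* and in averages over genotypes, are given both ways.

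The members' probe sets covered nearly the whole range of signal. *psaB* (mean log2 signal of 11.55), *petA* (10.82), *petB* (10.60) and *psaI* (9.49) were brighter than 95.96% or more of all genes. *psaJ* (7.80) and *petL* (6.74) lay above the array median on every array. *psaA* (5.33), *psaC* (5.22) and *petG* (4.87) lay near it and fell below the array median on 15, 22 and 20 of the 29 arrays, and *petD* (3.28) lay below it on all 29. Folds of these 4 dim probe sets are uncertain in size, since a summarised signal flattens towards background.

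Spread within groups also differed. The pooled SD of *psaJ* was 1.11 log2, above that of 99.96% of genes, followed by *petG* (0.508), *petL* (0.455), *psaC* (0.332) and *psaA* (0.316). *petA* had the smallest at 0.156, below the median of all genes of 0.170. A difference that passed the test in *petA* could thus be well within the scatter of *psaJ*.

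**Figure D1:**
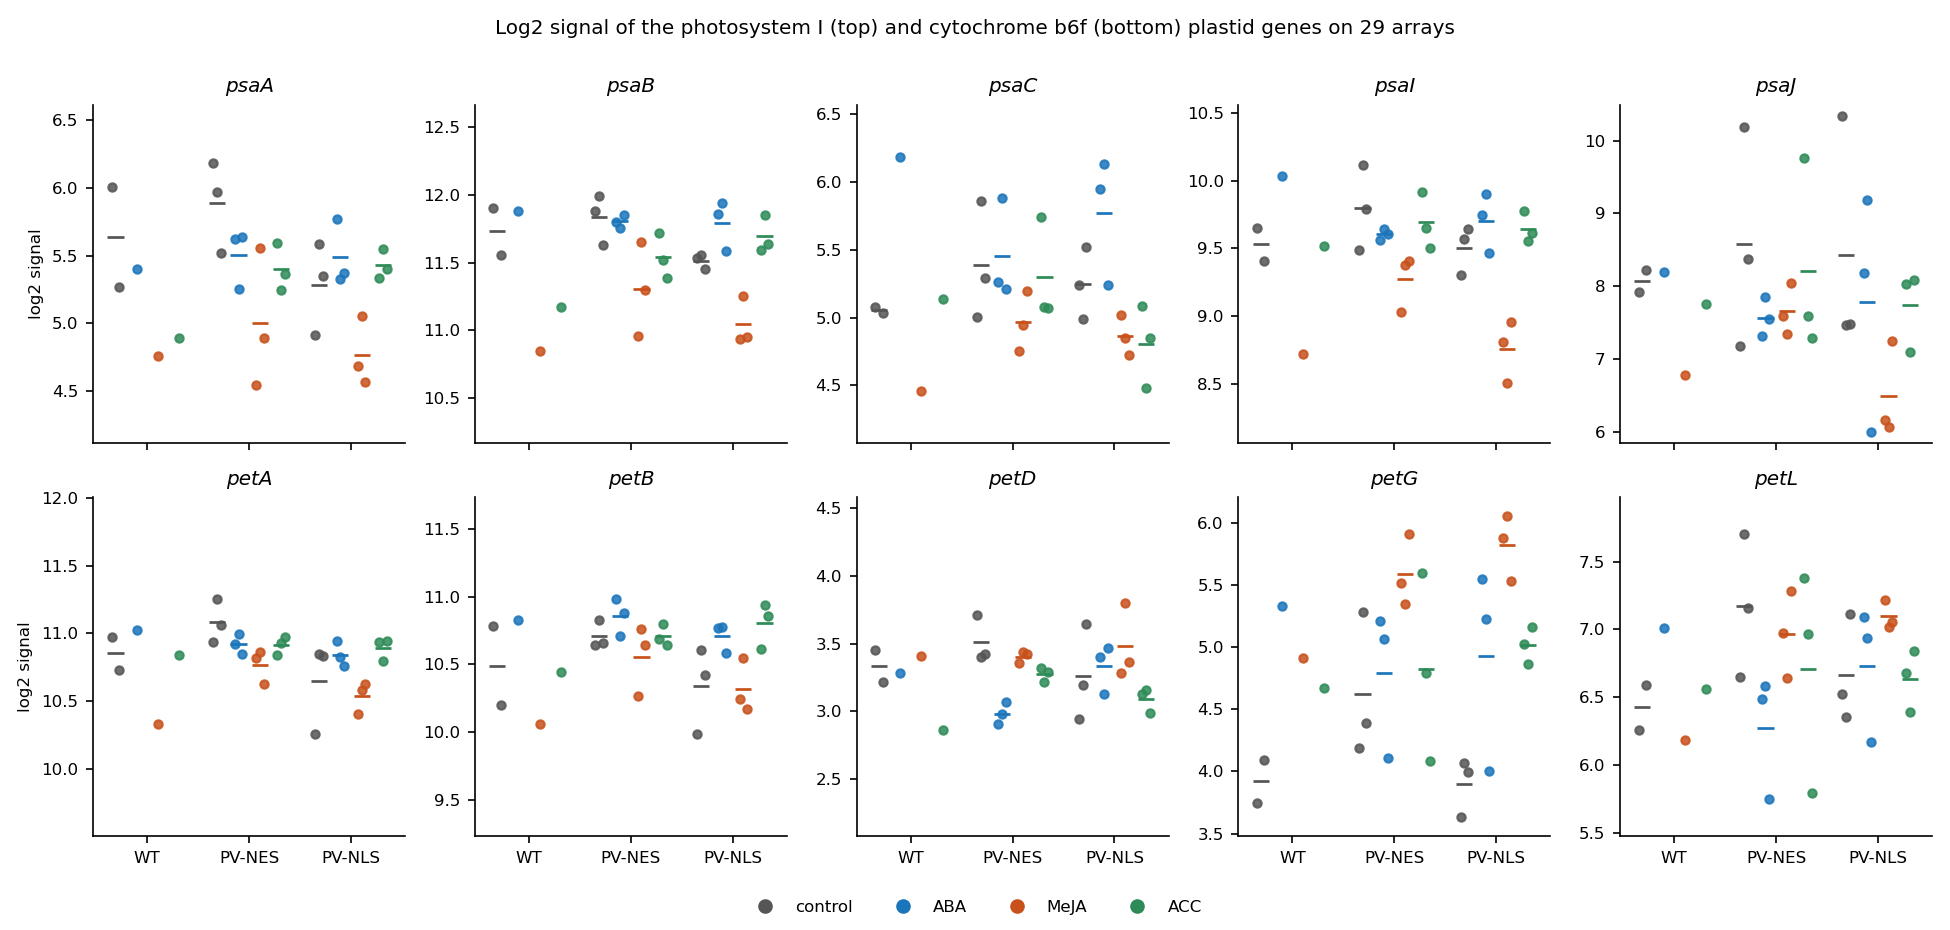
Log2 signal (y axis, a separate range in each panel) of the 10 genes on all 29 arrays, by genotype (x axis) and treatment (colour). Points are single arrays and bars are means of groups with more than 1 array. After MeJA (orange) *psaB* and *psaI* sit low in every genotype, whereas *petG* sits high, and *psaJ* scatters over several log2 units within groups.

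After MeJA, the methyl ester of the hormone jasmonic acid, plastid photosystem I signals were below those of controls. All 5 *psa* genes had values below 0 in all 3 genotypes, with medians of -0.88 in WT, -0.53 in *PV-NES* and -0.51 in *PV-NLS* on the log2 scale. *psaB* and *psaI* passed an adjusted p of 0.05 in each genotype and *psaA* in *PV-NES*. The 5 cytochrome b6f genes were mixed, with medians of -0.24, -0.15 and 0.22. *petA* and *petB* had values below 0 in all 3 genotypes and *petG* values above 0, and the complexes were not tested against each other. The 69 plastid genes had medians of -0.38, -0.31 and -0.36 and all genes 0.04, 0.03 and 0.04. Whole seedlings were used, so a lower signal can come from fewer green cells or from less RNA per cell, and these cannot be told apart.

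*psaB* encodes 1 of the 2 large reaction-centre proteins that hold the chlorophylls and first acceptors of photosystem I. Its signal was 11.90 and 11.56 on the WT controls and 10.84 on the WT MeJA array. In *PV-NES* it was 11.88, 11.99 and 11.63 in controls and 10.96, 11.65 and 11.30 after MeJA. In *PV-NLS* it was 11.54, 11.55 and 11.45 in controls and 10.93, 11.26 and 10.95 after MeJA. MeJA arrays lay below every control array in WT and *PV-NLS*, and in *PV-NES* the line 7 MeJA array lay just above the lowest control. The log2 fold changes were -0.89 (SE 0.22, limma adjusted p = 0.01075), -0.53 (SE 0.15, adjusted p = 0.0118) and -0.47 (SE 0.15, adjusted p = 0.0194), or 0.540, 0.693 and 0.723 of the control signal.

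*psaI*, which encodes a small membrane subunit, gave 9.65 and 9.41 on the WT controls and 8.72 on the WT MeJA array. In *PV-NES* the controls were at 9.49, 10.12 and 9.79 and the MeJA arrays at 9.03, 9.38 and 9.41. In *PV-NLS* they were at 9.31, 9.57 and 9.64 and at 8.81, 8.50 and 8.96. Control and MeJA arrays did not overlap in any genotype. The changes were -0.81 (SE 0.24, adjusted p = 0.0278), -0.53 (SE 0.16, adjusted p = 0.0175) and -0.75 (SE 0.16, adjusted p = 9.168e-04), and the last passed with any single array left out.

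*psaA*, the other large reaction-centre gene, fell by 0.89 in *PV-NES* (SE 0.23, adjusted p = 0.006747), from 6.18, 5.97 and 5.52 to 4.55, 5.56 and 4.89. The line 7 MeJA array thus overlapped the controls. The WT value was -0.88 (adjusted p = 0.105). *PV-NLS* gave -0.51 (adjusted p = 0.0933), or -0.70 with 0.0386 without its control replicate 1. *psaC*, which encodes the protein of the terminal iron-sulphur clusters on the stromal side, was at -0.60, -0.42 and -0.39 with adjusted p-values of 0.231 or more. *psaJ*, which encodes a small subunit beside PsaF, a protein that helps plastocyanin to bind, was at -1.29, -0.92 and -1.94. Its *PV-NLS* controls read 10.34, 7.47 and 7.48 against 6.16, 6.06 and 7.25 after MeJA, so the value rests on control replicate 1 (adjusted p = 0.0608 with it; -0.98 with 0.343 without it). Without *PV-NLS* ABA replicate 3, which enters only the estimate of spread, the adjusted p was 0.039.

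*petG*, which encodes a small membrane subunit that tobacco needs for a stable b6f complex, rose in *PV-NLS* from 3.63, 4.07 and 4.00 to 5.88, 6.05 and 5.53 after MeJA. This was 3.78-fold (log2 1.92, SE 0.36, adjusted p = 3.159e-04), well clear of the controls, and 1.79 with an adjusted p of 0.00245 without *PV-NLS* control replicate 1. In WT the signal was 3.75 and 4.09 in controls and 4.91 after MeJA (0.99, adjusted p = 0.266). In *PV-NES* it was 4.19, 5.28 and 4.39 in controls and 5.51, 5.35 and 5.91 after MeJA (0.97, adjusted p = 0.0562). The groups did not overlap in either, although only *PV-NLS* passed. The direct test of the *PV-NLS* response against that of WT gave 0.93 (SE 0.66, adjusted p = 0.736) and of *PV-NES* against *PV-NLS* -0.95 (SE 0.51, adjusted p = 0.909).

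The other b6f genes moved less after MeJA. *petA* encodes cytochrome f, which hands electrons to plastocyanin, and had values of -0.52, -0.31 and -0.11 with adjusted p-values of 0.0827, 0.0853 and 0.531 in WT, *PV-NES* and *PV-NLS*. Without *PV-NLS* control replicate 1, where *petA* was lowest of all arrays at 10.26, the *PV-NLS* value became -0.31 (adjusted p = 0.0454). *petB*, which encodes cytochrome b6, gave -0.43, -0.15 and -0.02. *petD*, for subunit IV of the complex, gave 0.08, -0.11 and 0.22, and *petL*, for another small subunit, gave -0.24, -0.20 and 0.43. The smallest adjusted p of these 3 was 0.261.

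A gene is termed called where its signal changed more than 2-fold with an adjusted p below 0.05. MeJA called 0 of 10 members in WT (5.06% of all genes called), 0 in *PV-NES* (4.84%) and, in *PV-NLS*, only *petG*, higher (2.92% of all genes called higher). At an unadjusted p under 0.05, limma gave 4 members in WT (5794 of all 22589 genes) and 5 in *PV-NES* (7831). The methods' t-test gave 1 and 0 members there. For *PV-NLS*, limma gave 5 members, beside 9746 of all genes, and the methods' t-test 3. By adjusted p alone, 2 members were lower in WT (5.57% of all genes), 3 in *PV-NES* (12.5%), and in *PV-NLS* 2 were lower (16.4%) and 1 higher (16.2%). In *PV-NLS* the members' share of lower genes was thus close to that of all genes. In WT, *psaB* and *psaI* no longer passed without WT control replicate 1 (adjusted p = 0.102 and 0.153). In *PV-NES*, none of the 3 passed without MeJA replicate 1 (adjusted p = 0.0592 for *psaA*, 0.102 for *psaB* and 0.104 for *psaI*), and *psaB* and *psaI* also missed without control replicate 2 (0.0634 and 0.129) and in a fit of only the groups compared (0.0604 and 0.0561). In *PV-NLS*, *psaB* missed without control replicate 2 (0.0579), MeJA replicate 1 (0.0769) or MeJA replicate 3 (0.058).

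**Figure D2:**
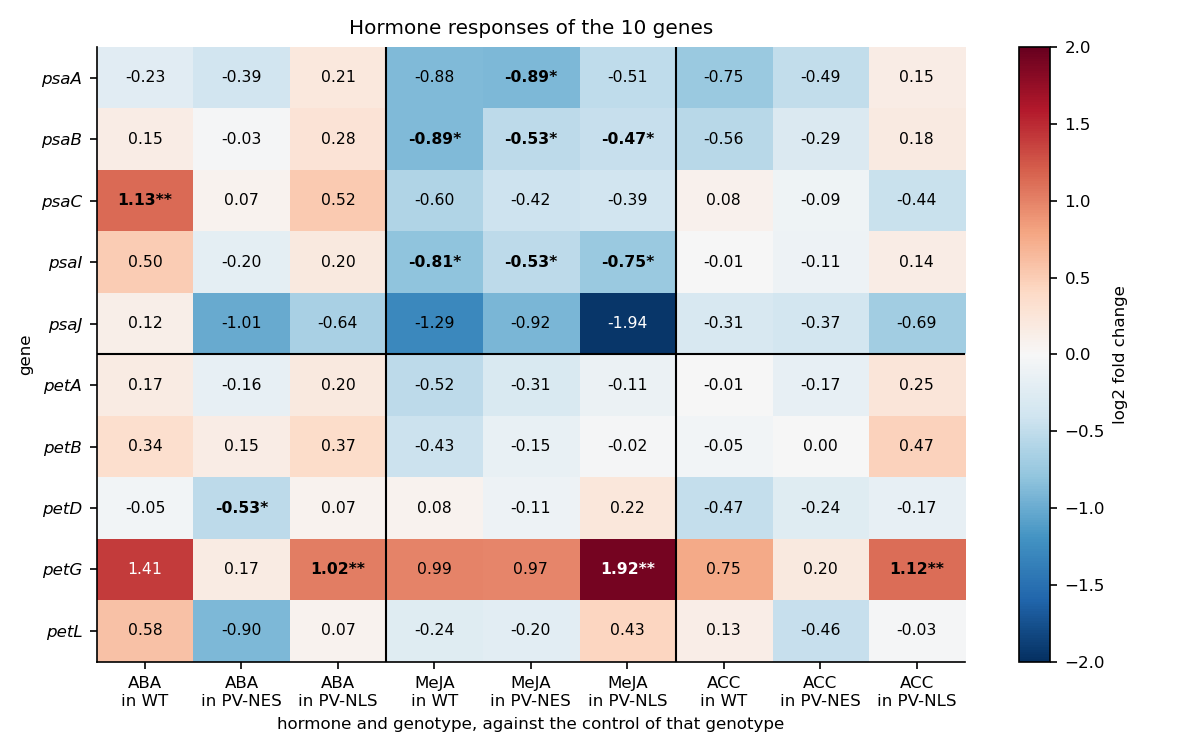
Log2 fold change (colour and number) of each gene (rows) after each hormone in each genotype (columns) against the control of that genotype. 1 star marks an adjusted p under 0.05 and 2 stars mark in addition a fold change above 2, and the black lines separate hormones and the 2 complexes. The upper middle block, photosystem I after MeJA, holds only values below 0, from -1.94 to -0.39, and the *petG* row only values above 0.

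Averaging the MeJA responses of the 3 genotypes with equal weights, a contrast added after the data were seen, gave narrower intervals. All 5 photosystem I genes were lower by adjusted p, *psaI* by -0.69 (SE 0.11, adjusted p = 1.791e-05), *psaB* by -0.63 (SE 0.10, 3.007e-05), *psaA* by -0.76 (SE 0.16, 4.833e-04), *psaC* by -0.47 (SE 0.17, 0.0267) and *psaJ* by -1.38 (SE 0.54, 0.0405). *petA* was lower by -0.32 (SE 0.09, 0.006154) and *petG* higher by 1.29 (SE 0.25, 2.107e-04). *petB* (-0.20, 0.149), *petD* (0.06, 0.641) and *petL* (0.00, 0.990) did not pass, although *petB* passed without *PV-NLS* control replicate 1 (-0.26, 0.0472). That is 6 of 10 members lower against 20.9% of all genes and 39 of 69 plastid genes, and 1 higher against 23.2%. With the fold threshold, *psaJ* was lower (2.17% of all genes) and *petG* higher (2.68%). *psaA*, *psaB*, *psaI*, *petA* and *petG* passed under every alternative that tested them. *psaC* missed without *PV-NES* control replicate 2, *PV-NLS* control replicate 3 or WT control replicate 1 (adjusted p of 0.0514 to 0.0565), and *psaJ* missed without any of 8 arrays, *PV-NLS* control replicate 1 among them (-1.07, adjusted p = 0.0817), with the line as a block (0.0507) and with an intensity trend and robust prior (0.0799).

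*petL*, *petG* and *psaJ* lie next to each other on the plastid genome and share an operon with *rpl33* and *rps18*, yet their averaged MeJA values were 0.00, 1.29 and -1.38. The plastid genes next below *petG* were the adjacent photosystem II genes *psbK* (1.08) and *psbI* (0.97), and the next after them, *psbJ*, was at 0.29. The plastid-encoded photosystem I assembly factors *ycf3* and *ycf4* were both lower by adjusted p in the average, at -0.65 and -0.54. Of other plastid complexes, 10 of 15 photosystem II, 3 of 10 NDH, 5 of 6 ATP synthase and 7 of 15 ribosomal protein genes were lower by adjusted p.

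**Figure D3:**
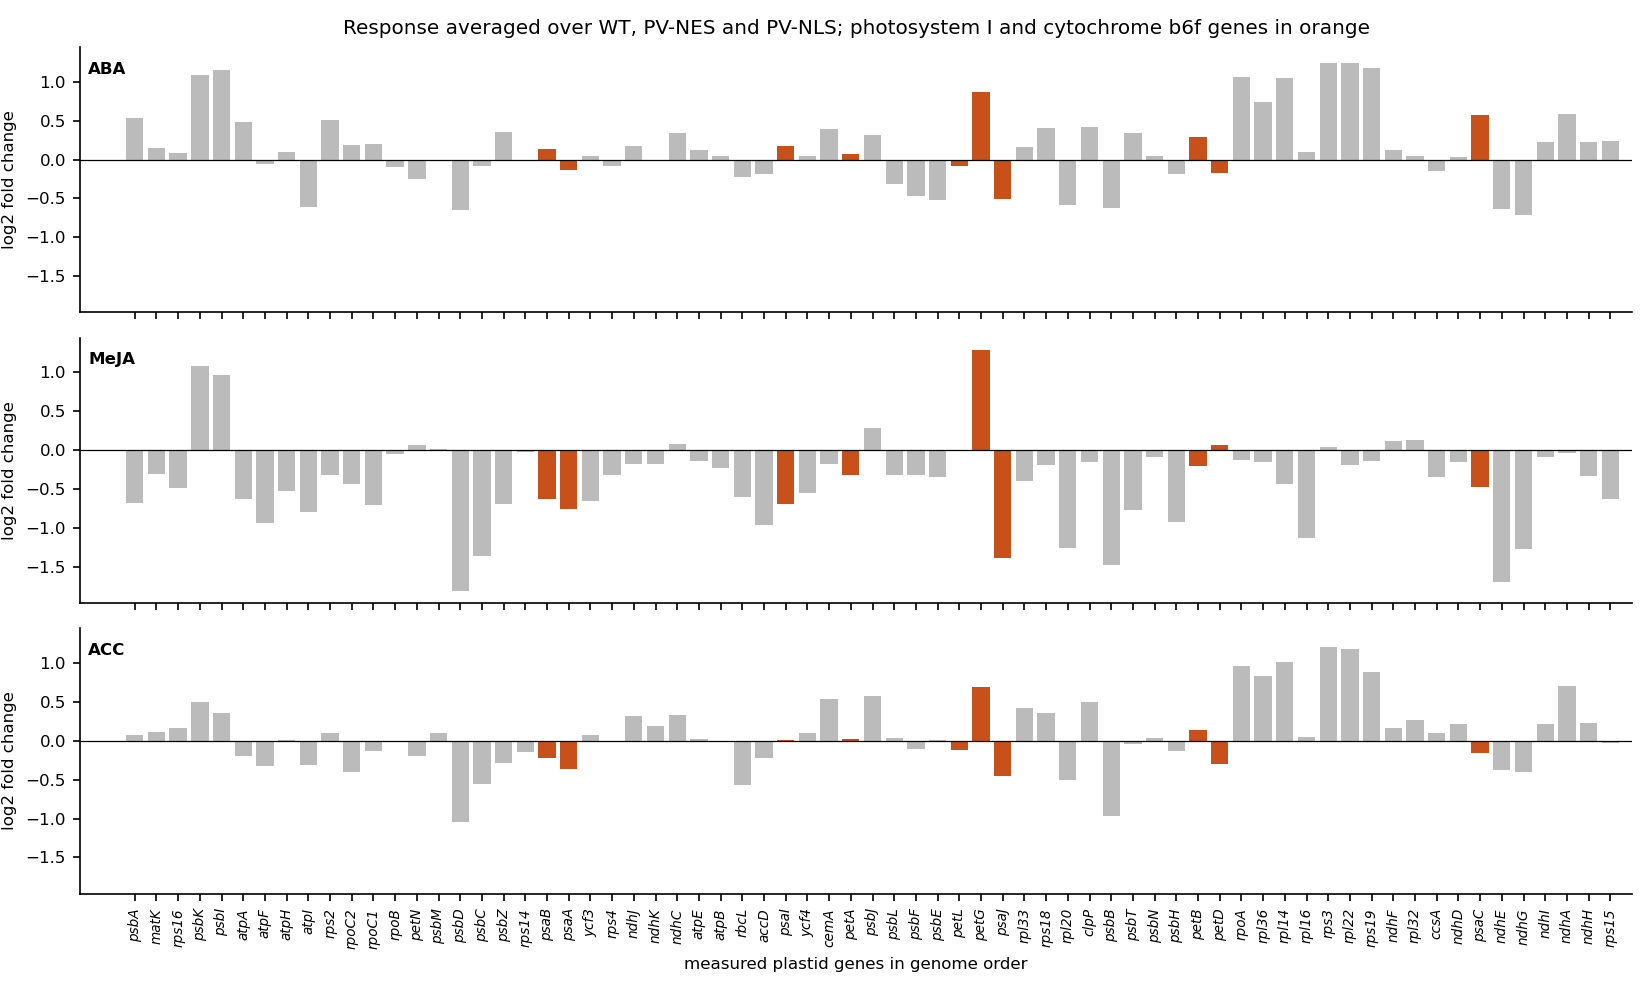
Log2 fold change (y axis) averaged over WT, *PV-NES* and *PV-NLS* after ABA, MeJA and ACC for the 69 measured plastid genes in genome order (x axis), with the 10 members in orange and other genes in grey. After MeJA most bars point down, and *petG* at 1.29 stands between *petL* at 0.00 and *psaJ* at -1.38.

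Nucleus-encoded partners were measured only in part, because few are named alone by a probe set. Of 20 symbols listed for nuclear photosystem I core subunits 2 were measured. *PSAE-1*, a stromal subunit, was at -0.18, -0.07 and -0.16 after MeJA in WT, *PV-NES* and *PV-NLS* and did not pass. *PSAN*, a lumenal subunit, was at -0.15, -0.25 and -0.28 and passed by adjusted p in *PV-NLS* (0.0323). Of 17 listed assembly factors 3 were measured. *HCF101*, needed to build the iron-sulphur clusters of photosystem I, was lower by adjusted p in all 3 genotypes after MeJA (-0.54, -0.41 and -0.43, adjusted p = 0.0424, 0.0112 and 0.00619). *CcdA*, required for cytochrome f assembly, was lower in *PV-NLS* (-0.68, adjusted p = 0.00237), and *CCB3* did not pass. No gene was measured of the lists for photosystem I antenna proteins, nuclear b6f subunits and plastocyanins, RNA-binding factors of *psa* and *pet* transcripts, and nuclear plastid transcription factors.

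Of 25 green-tissue markers listed, only 4 were measured, *RCA*, *LHCB4.1*, *LHCB4.2* and *LHCB4.3*. These were lower by adjusted p after MeJA in WT and *PV-NLS* (4 of 4 each) and in *PV-NES* (3 of 4). The log2 fold changes of *LHCB4.3*, the largest of the 4, were -2.47, -1.51 and -1.92. The summed log2 signal of the 4 was 44.1 to 45.4 on control arrays, 43.5 to 43.9 after ABA, 40.3 to 43.4 after MeJA and 41.5 to 44.3 after ACC, so every ABA and MeJA array lay below every control array. The 3 measured of 20 listed root markers, *PYK10*, *EXPA7* and *EXPA18*, summed to 21.1 to 22.8 in controls, 22.5 to 25.2 after ABA, 21.5 to 25.2 after MeJA and 22.8 to 24.3 after ACC. By adjusted p after MeJA, 1 of 3 was higher in WT, 0 in *PV-NES* and 3 in *PV-NLS*. RMA signals hold no 0, and none of these markers was listed at 0. Their part in the results was not tested.

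After ABA, the genotypes gave different values. In WT, 8 of 10 members were above 0 (median 0.25), in *PV-NLS* 9 of 10 (median 0.20) and in *PV-NES* 3 of 10 (median -0.18). The 69 plastid genes had medians of 0.25, 0.18 and -0.16 and all genes -0.01, 0.04 and 0.01, so the members' medians lay close to those of all plastid genes in each genotype.

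*psaC* read 5.08 and 5.03 on the WT controls and 6.19 on the WT ABA array, a 2.19-fold rise (log2 1.13, SE 0.36, adjusted p = 0.047). It was the only member called in WT, where 2.35% of all genes and 12 of the 69 plastid genes were called higher. By adjusted p, 5.06% of all genes passed higher. The call is marginal, since it was lost without 10 of the 26 arrays left out in turn, both WT controls among them (adjusted p = 0.0957 without WT control replicate 1, 0.104 without replicate 2 and 0.0528 without *PV-NLS* control replicate 1), and with the line as a block (0.0561). In *PV-NES*, *psaC* was 5.00, 5.86 and 5.30 in controls and 5.26, 5.88 and 5.21 after ABA (0.07). In *PV-NLS* it was 5.24, 4.99 and 5.52 in controls and 5.95, 6.13 and 5.24 after ABA (0.52, adjusted p = 0.121), or 0.79 with an adjusted p of 0.0263 without *PV-NLS* ABA replicate 3.

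*petG* was at 5.33 after ABA in WT against 3.75 and 4.09 in controls, a value of 1.41 that did not pass (SE 0.55, adjusted p = 0.102). In *PV-NLS* it read 5.55, 5.22 and 4.00 after ABA and 3.63, 4.07 and 4.00 in controls, and was called higher at 1.02 (SE 0.36, adjusted p = 0.0423), although line 8 overlapped the controls. In that comparison 1.77% of all genes and 8 of the 69 plastid genes were called higher, and 12.4% of all genes passed higher by adjusted p. The call was lost without *PV-NLS* control replicate 1 (0.89, adjusted p = 0.139), the other 2 controls (adjusted p = 0.0541 and 0.0791), or ABA replicate 1 (0.71, 0.213) or 2 (0.87, 0.145), and rose to 1.49 (adjusted p = 0.00463) without ABA replicate 3. In *PV-NES* the value was 0.17 and the arrays of both groups overlapped.

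In *PV-NES*, 0 members were called after ABA (2.95% of all genes called). At an unadjusted p under 0.05, limma gave 2 (5213 of all 22589 genes) and the methods' t-test 1. By adjusted p alone *petD* was lower (5.02% of all genes lower), from 3.71, 3.40 and 3.42 to 2.90, 2.98 and 3.06 (-0.53, SE 0.15, adjusted p = 0.0204). The groups did not overlap, but every value lay below the array median, and *petD* no longer passed without control replicate 1 (0.114), ABA replicate 1 (0.0782) or ABA replicate 2 (0.0543). *petL* read 6.65, 7.70 and 7.16 in controls and 6.49, 6.58 and 5.75 after ABA, without overlap (-0.90, SE 0.33, adjusted p = 0.0802).

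**Figure D4:**
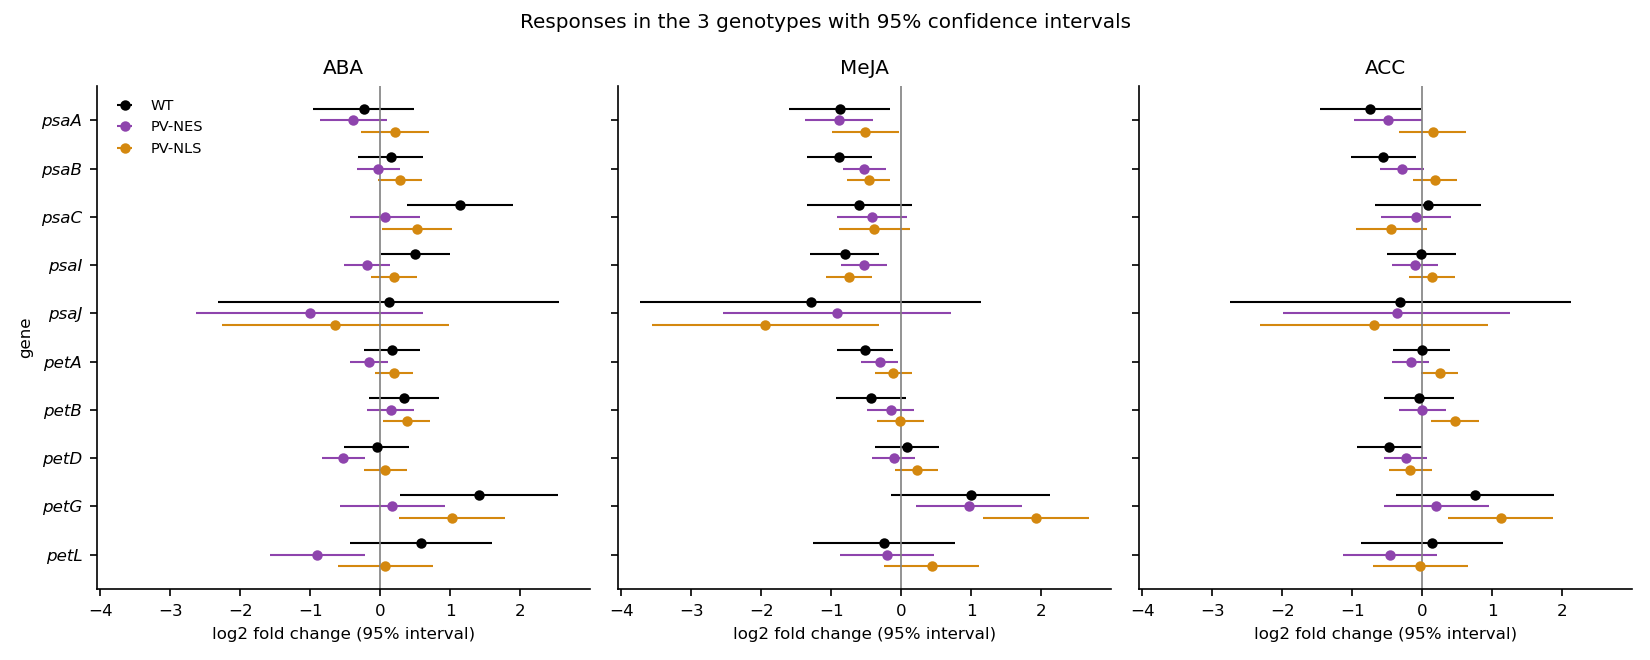
Log2 fold change (x axis) with its 95% confidence interval for each gene (y axis) after ABA, MeJA and ACC in WT (black), *PV-NES* (purple) and *PV-NLS* (orange). After ABA the *PV-NES* point lies left of the other 2 in all 10 genes, with intervals that mostly overlap, and the intervals of *psaJ* are the widest.

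Whether the responses differed between genotypes was tested by interaction contrasts. For ABA in *PV-NES* against WT, all 10 members were below 0 (median -0.59, with -0.48 over the 69 plastid genes and 0.03 over all genes), and the number below 0 was 8 to 10 over the alternatives. *petL* (-1.48, SE 0.59), *psaC* (-1.07, SE 0.44) and *psaI* (-0.70, SE 0.29) had an unadjusted p under 0.05, as had 2439 of all 22589 genes. Their adjusted p-values were 0.339, 0.360 and 0.357, and 0 of 10 were called (0.0266% of all genes). The 10 values share the single WT ABA array and the same controls. Against *PV-NLS*, the ABA response of *PV-NES* was again below 0 for all 10 (median -0.42), as it was for 64 of the 69 plastid genes (median -0.35). By medians, the genotypes differed more in the untreated arrays than under ABA. For *psaC*, *psaJ* and *petD* they differed more under ABA (*petD* by -0.35 under ABA and 0.25 without hormone). *PV-NES* was below *PV-NLS* in 0 of 10 members without hormone (median 0.35) and in 6 of 10 under ABA (median -0.12). *PV-NES* control replicate 2 had the highest mean signal of the 10 members on any array (8.26). The part of the controls in the ABA differences was not tested. For this difference in response, *petD* (-0.60, adjusted p = 0.346) and *petL* (-0.97, adjusted p = 0.457) had an unadjusted p under 0.05, as had 2441 of all 22589 genes. In it 0 members and 0% of all genes were called. For *PV-NLS* against WT after ABA, 0 members were called (0% of all genes) and 0 had an unadjusted p under 0.05 (826 of all 22589 genes).

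For MeJA, 0 members were called in any of the 3 interactions, nor did any reach an unadjusted p of 0.05, and no gene on the array was called (0%). Of all 22589 genes, 1295 (*PV-NES* against WT), 1971 (*PV-NLS* against WT) and 1264 (*PV-NES* against *PV-NLS*) had an unadjusted p under 0.05. The differences in the response of *psaB* were 0.36 (95% interval -0.20 to 0.92) for *PV-NES* against WT, 0.42 (-0.14 to 0.98) for *PV-NLS* against WT and -0.06 (-0.50 to 0.37) between the transgenic genotypes. For *psaI* they were 0.28 (-0.31 to 0.87), 0.06 (-0.53 to 0.65) and 0.22 (-0.24 to 0.68). The intervals leave room for differences as large as the responses, so alike responses were not shown. After ACC, *PV-NLS* against WT gave 0.89 for *psaA* and 0.74 for *psaB* at an unadjusted p under 0.05 (adjusted p = 0.260 and 0.141), with 0 members called against 1.4% of all genes. *PV-NES* against WT gave 0 called and 0 at an unadjusted p under 0.05 (0.921% of all genes called). *PV-NES* against *PV-NLS* gave -0.47 for *psaB* and -0.41 for *petA* at an unadjusted p under 0.05 (adjusted p = 0.683 and 0.680), with 0 called (0%). In these 3 ACC interactions, in the same order, 4104, 3418 and 1570 of all 22589 genes had an unadjusted p under 0.05. The methods' t-test was not run on interactions.

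After ACC, in WT 0 members were called (5.41% of all genes). At an unadjusted p under 0.05, the methods' t-test gave 0 members and limma 3 (6307 of all 22589 genes). These 3 were *psaA* (-0.75), *psaB* (-0.56) and *petD* (-0.47), with adjusted p-values of 0.163, 0.0998 and 0.169. In *PV-NES* 0 were called (0.682%), and 9 of 10 values were below 0 (median -0.20), as were 47 of the 69 plastid genes (median -0.08). At an unadjusted p under 0.05, limma gave 1 (*psaA*, -0.49, adjusted p = 0.270), beside 4020 of all 22589 genes, and the methods' t-test 0.

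In *PV-NLS* after ACC only *petG* was called, with 5.02, 4.87 and 5.16 against 3.63, 4.07 and 4.00 in controls (1.12 or 2.17-fold, SE 0.36, adjusted p = 0.0451). The groups did not overlap. Of all genes 0.483% were called higher, as were 7 of the 69 plastid genes, and 6.28% of all genes passed higher by adjusted p. Without *PV-NLS* control replicate 1 the value was 0.98 (adjusted p = 0.158), and the call was lost without any of 9 other arrays (adjusted p of 0.0501 to 0.126). *petB* was at 0.47 (adjusted p = 0.0599) and without that control at 0.29 (0.312). Averaged over genotypes, *petG* was higher (0.69, adjusted p = 0.0403; 15.4% of all genes) and *petD* lower (-0.29, adjusted p = 0.0335; 14% of all genes) after ACC. After ABA the average was 0.87 for *petG* (adjusted p = 0.00929) and 0.57 for *psaC* (adjusted p = 0.00988), higher like 17.2% of all genes. The averages after ABA and MeJA of *petG* passed under every alternative that tested it. After ACC *petG* no longer passed without any of 8 of the 26 arrays (adjusted p up to 0.095), *PV-NLS* control replicate 1 among them (0.65, 0.0671), and *petD* without any of 5 (up to 0.0974). *psaA* was at -0.36 in the ACC average (0.0907) and passed without *PV-NLS* control replicate 1 (-0.42, 0.0486). *petB* was at 0.29 in the ABA average (0.0509) and passed without *PV-NLS* ABA replicate 3 (0.31, 0.0445). The 3 hormone averages share the same controls.

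Without hormone, all 10 members were higher in *PV-NES* than in *PV-NLS* (median 0.35), as were 65 of 69 plastid genes (median 0.25), but 0 were called (0% of all genes). *petA* (0.43), *psaA* (0.61), *petB* (0.37) and *psaB* (0.32) had an unadjusted p under 0.05 by limma, as had 1846 of all 22589 genes. Their adjusted p-values were 0.441 to 0.598, and by the methods' t-test 1 member had an unadjusted p under 0.05. Without *PV-NLS* control replicate 1, all 10 were still above 0 (median 0.29) and 1 had an unadjusted p under 0.05. Against WT, 10 of 10 were above 0 in *PV-NES* (median 0.26) and 3 of 10 in *PV-NLS* (median -0.05), with 0 called (0.00443% and 0% of all genes). By either test 0 had an unadjusted p under 0.05, against 2363 and 1440 of all 22589 genes by limma. These 3 comparisons share control arrays.

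Under hormone, *PV-NES* and *PV-NLS* differed in 0 called members after ABA (0% of all genes), MeJA (0.093%) and ACC (0%). limma gave 1, 1 and 0 at an unadjusted p under 0.05 (2076, 4689 and 1628 of all 22589 genes), and the methods' t-test 1, 1 and 1. The nearest to the threshold was *psaI* after MeJA, where the *PV-NES* arrays at 9.03, 9.38 and 9.41 lay above those of *PV-NLS* at 8.81, 8.50 and 8.96 (0.52, SE 0.16, adjusted p = 0.0617).

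Over the 12 groups, *psaB* was lowest in WT MeJA (10.84) and highest in WT ABA (11.88), and *psaC* and *psaI* had the same lowest and highest group (4.46 and 6.19, and 8.72 and 10.03). *petA* (10.33), *petB* (10.06), *petL* (6.18) and *psaA* (4.76) were also lowest in WT MeJA. WT MeJA and WT ABA hold 1 array each, and some of these extremes were near ties. *psaB* was at 11.83 in the *PV-NES* control, and in *PV-NLS* MeJA *psaI* was at 8.76 and *psaA* at 4.77. The highest group of *psaA*, *psaJ*, *petA*, *petD* and *petL* was the *PV-NES* control. *petG* had a different order, lowest in the *PV-NLS* control (3.90 ± 0.24, SD, n = 3), close to the WT control (3.92 ± 0.24, n = 2), and highest in *PV-NLS* MeJA (5.82 ± 0.27, n = 3), next to *PV-NES* MeJA (5.59 ± 0.29, n = 3). The lowest pair and the highest pair of groups in this order each differed by less than their SDs.

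Across the 12 group means, Pearson's r of each member with the mean of the other 9 was 0.89 for *petA*, 0.85 for *psaI*, 0.84 for *psaB* and 0.83 for *petB*, and -0.04 for *petD* and -0.24 for *petG*. Genes outside the 10 whose profile was most like the members' centred mean were *psbT* (r = 0.95), a small photosystem II subunit, *atpE* and *atpB* (0.92 each), subunits of the ATP synthase, and the nuclear genes *AT3G27930*, *AT3G56340*, *AT5G22820*, *AT4G14050* and *AT1G76810* (0.90 to 0.92). The 12 means share the arrays' normalisation, and these were the highest r among all genes that a probe set names alone, so they describe likeness only.

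Deviations of single arrays from their group mean show which members vary together apart from treatment and genotype. They were correlated over the 26 arrays of groups with more than 1 array, which share labelling and scanning on each array. *petL* and *petG*, adjacent genes, had r = 0.87, the closest partner of each among the measured plastid genes. *psaC* was closest to its neighbour *ndhE* (0.90), *petA* to its neighbour *cemA* (0.77) and *psaB* to *psaA* (0.77). Other neighbours were less close. *psaC* had 0.10 with *ndhD*, on its other side. *psaA* was closest to *psbC* (0.85), and *psaI* to *atpH* (0.80), with 0.48 and 0.45 for its neighbours *ycf4* and *accD*. *petB* had r = 0.74 with its upstream neighbour *psbH*, was closest to *psbC* of photosystem II (0.87), and had only 0.38 with *petD*, the next gene of its operon, whose probe set is dim.

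The members fell into loose sets in these deviations, not all along operon lines. *psaA*, *psaB* and *petB* varied together (0.68 to 0.78). So did *psaC*, *psaI*, *psaJ*, *petG* and *petL* (0.52 to 0.87), of which only the last 3 share an operon. *psaA* had -0.25 with *psaJ* and -0.03 with *psaC*. *psaI* and *petA*, which share an operon with *accD*, had 0.43, and *psaJ* had its highest r with *accD* (0.77). Over the 45 pairs of members the median was 0.27, against 0.26 over the 2346 pairs of plastid genes, so as a set the 10 did not vary together more than other plastid genes.

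**Figure D5:**
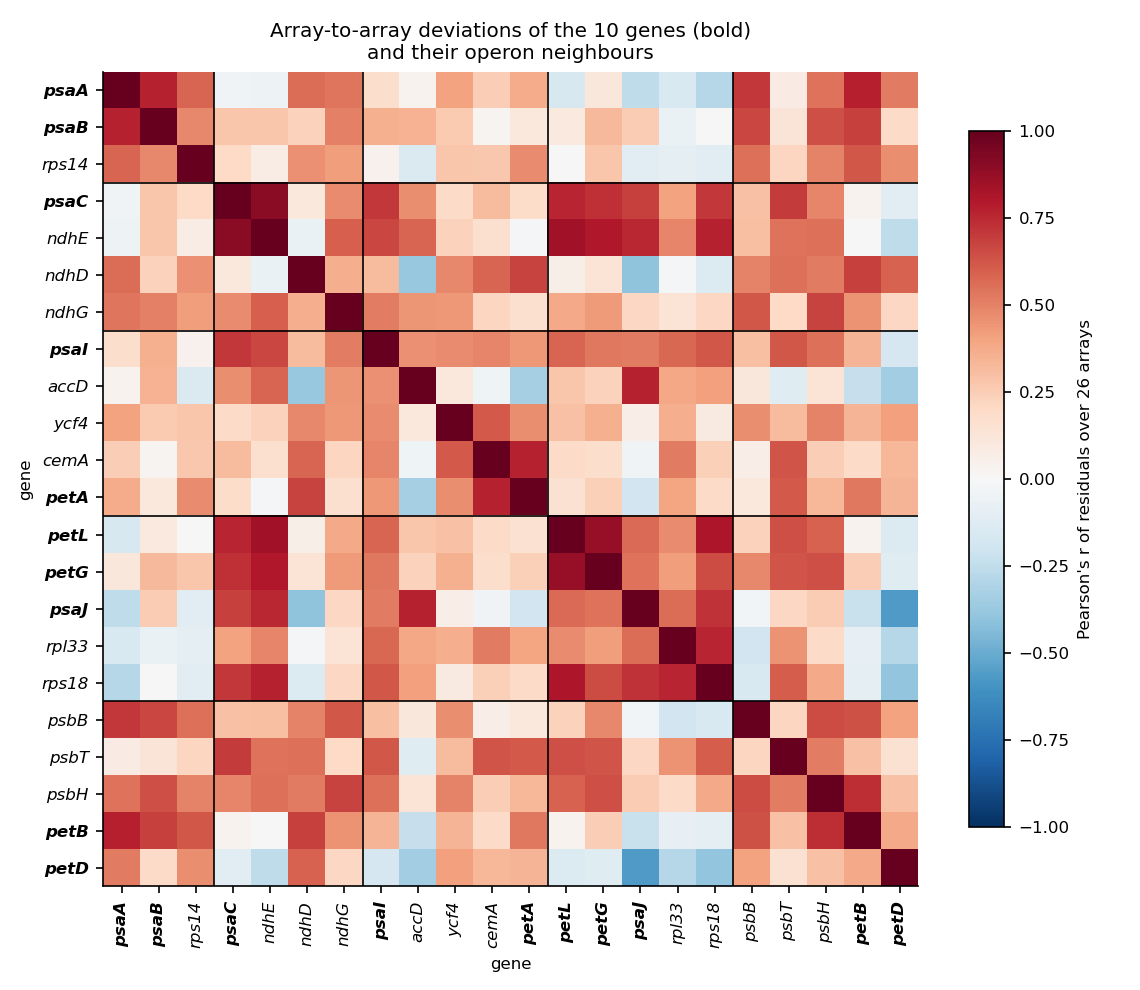
Pearson's r (colour) between genes of their deviations from the group mean over 26 arrays, for the 10 members (bold) and neighbours in 5 operons separated by black lines. Dark red squares off the diagonal include *psaC* with *ndhE* (0.90), *petL* with *petG* (0.87) and *cemA* with *petA* (0.77), and the *psaA* and *psaJ* rows differ in most columns.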

How the data were processed

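The authors extracted RNA from 29 seedling samples, hybridised ATH1 arrays and deposited log2 signals per probe set made by RMA, which corrects background, equalises quantiles and summarises probes; no version is given in the sources used here. Base 2 was read from the range (1.345 to 13.26). The ACC schedule comes from the labels.

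Of 22810 probe sets, 64 controls were dropped; 13513 name 1 gene, 503 several and 8730 none here. The brightest probe set represented a gene. Symbols and gene order came from platform annotation and RefSeq (TAIR10.1). A model of 12 group means used limma 3.58.1 and R 4.3.3 (17 residual and 5.94 prior degrees of freedom), with Benjamini-Hochberg adjustment over 22589 genes. Calls needed a change of more than 2-fold besides an adjusted p below 0.05. The number of arrays limits the precision.

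The members and lists were chosen with earlier results of these data known. Named genes are the members, list members and the 8 most alike in profile. Alternatives were single arrays left out, line blocks, other variance models, weights, scaling, filters and the methods' t-test. The same lines recur under every treatment; residual r within a line had a median of 0.00789 (*PV-NES*) or 0.109 (*PV-NLS*), against -0.0238 or -0.059 between lines. No sequence was at hand.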

Additional observations from a re-analysis of the deposited data

How the results depend on the processing

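No called value changed direction under any of the 34 alternatives. Of 97 member responses and averages that did not pass, 33 changed sign under at least 1, so their direction is not settled. With 1 array left out, counts of called members were 0 to 1 for ABA in WT, *PV-NES* and *PV-NLS*, 0 to 2, 0 to 1 and 1 to 2 for MeJA, and 0 to 1, 0 to 0 and 0 to 1 for ACC, in the same order. By adjusted p they were 0 to 1, 0 to 2 and 0 to 2 (ABA), 0 to 3, 0 to 4 and 2 to 5 (MeJA), 0 to 2, 0 to 0 and 0 to 2 (ACC), and for averages 2 to 3, 5 to 7 and 0 to 3. Interactions and differences between genotypes stayed at 0 called throughout. With the line as a replicate block, ABA in WT gave 0 called members, and no other count changed by over 1.5 times. Fits with only the groups compared gave 0 for ABA and 0 for MeJA in WT by adjusted p, where 1 degree of freedom remained, and *psaB* and *psaI* no longer passed after MeJA in *PV-NES*. The methods' t-test gave 0 by adjusted p everywhere except 1 for MeJA in *PV-NLS* (*petG*). An intensity trend gave 0 called for ABA and ACC in *PV-NLS* and 1 in the ACC average. Array weights gave 0 for ABA in WT, 1 called and 2 by adjusted p for ABA in *PV-NES*, 5 for MeJA in *PV-NES* and in *PV-NLS*, 4 for ABA and 2 for ACC in *PV-NLS*. Shifting the arrays, which moved the median of all genes by up to 0.0666, gave 1 called for MeJA in *PV-NES*, 2 by adjusted p for ACC in *PV-NLS* and 1 in the ACC average. Without dim probe sets, *psaA*, *psaC*, *petD* and *petG* were not tested, which left 0 called in every response, 0 by adjusted p for ABA, and 1, 4 and 0 in the averages of ABA, MeJA and ACC. By adjusted p in place of both thresholds, MeJA gave 2, 3 and 3 and ABA in *PV-NES* 1. Over all genes, fits with only the groups compared called 129 for MeJA and 0 for ACC in WT, against 1143 and 1222, the methods' t-test called 0 in WT, and array weights called 165 between the transgenic genotypes under MeJA, against 21. The paper names Student's t-test, yet it reports 1145 (MeJA in WT), 1095 (MeJA in *PV-NES*) and 667 (ABA in *PV-NES*) genes. These equal the limma counts with all probe sets tested separately, where the methods' t-test called 0, 720 and 432. The paper's other counts for ABA and MeJA were close to limma's 1002 (ABA in WT), 888 and 1263 (ABA and MeJA in *PV-NLS*). The 0 in WT is thus not the paper's own result. Other causes were not tested.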
